A study of Mus musculus with 6 samples.

Results

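The mouse liver genes for glucuronidation and sulfation were examined in acetaminophen-treated HepKO and Flox mice. The group holds every gene of the deposited table whose symbol begins with Ugt, Sult or Papss and a number, pseudogenes left out, together with Ugdh, Ugp2 and Slc35d1. These are 41 of 28476 genes: 8 Ugt1a genes, 11 other Ugt genes, 17 Sult genes and 5 genes for the sugar and sulfate donors. Whole livers of C57BL/6 mice were profiled by poly(A) RNA sequencing 24 h after an intraperitoneal injection of 300 mg/kg acetaminophen given after an overnight fast. The groups are 3 livers labelled Nedd4 HepKO and 3 labelled Flox, so both groups received the drug and livers without it are not analysed here. The labels do not give the Cre driver, the age or the sex of the mice, and they do not state that the libraries came from separate animals; p-values therefore reflect the variation among these 6 libraries, part of which may be technical. The series title names the ubiquitin ligase NEDD4-1 and liver injury by acetaminophen as the subject of the study.

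Glucuronidation joins glucuronic acid to a drug, bile acid, steroid or bilirubin in the endoplasmic reticulum, through UDP-glucuronosyltransferases (UGTs) that use UDP-glucuronic acid. Sulfation joins a sulfate group in the cytosol, through sulfotransferases (SULTs) that use the donor PAPS. Both make the product more soluble, and in liver they are the main routes by which acetaminophen is cleared without forming its reactive metabolite.

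Nedd4, the targeted gene, had 0.618, 0.666 and 0.565 FPKM in HepKO livers, against 2.18, 2.59 and 2.23 FPKM in Flox livers (log2 fold change -1.04, SE 0.10, limma adjusted p = 0.0015). Total FPKM per library ranged from 456176 to 496303, between 10402 and 10763 genes reached 1 FPKM, and read depth is unknown. Mitochondrial genes took 24.6% of the FPKM of HepKO replicate 1 and between 16.7% and 18.3% in the other 5 libraries. The 9 general hepatocyte markers summed to between 49463 and 53660 FPKM in HepKO livers and between 44566 and 49927 FPKM in Flox livers, and of these only the fibrinogen gene Fgb passed the test, as higher. In whole liver, fewer cells of a type and less RNA per cell cannot be told apart.

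Markers of other cells also differed between the groups. All 6 tested of 8 matched neutrophil markers rose, though Ngp and Cxcr2 reached the filter only through the HepKO livers, and the list summed to 127 to 150 FPKM in HepKO livers and 10.4 to 19.7 FPKM in Flox livers, with Elane and Ltf near 0. Of 4 tested erythroid markers 3 rose, the globin genes Hba-a1, Hbb-bs and Hbb-bt. Alas2, the other marker, did not pass and leaned lower (log2 fold change -0.31, limma adjusted p = 0.14). The erythroid list summed to 400 to 688 FPKM in HepKO livers and 99.7 to 179 FPKM in Flox livers, most of it from the globin genes. Cholangiocyte markers summed to 50.6 to 65.9 FPKM in HepKO livers and 25.2 to 35.0 FPKM in Flox livers. Of 4 tested, Sox9 and Spp1 were higher, while Krt19 (limma adjusted p = 0.39) and Epcam (0.85) did not pass. Spp1 carried most of the sum, at 36.8 to 49.0 FPKM in HepKO livers and 21.0 to 30.8 FPKM in Flox livers. The part of these cells in the differences below was not tested.

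Of the 41 members, 28 averaged at least 0.5 FPKM and were tested, and 14 of them differed between HepKO and Flox livers: 2 were higher and 12 lower. The 12 include Sult2a7, which reached the filter only through the Flox livers; with a filter of 1 FPKM, which leaves it out, 13 members were called, 2 as higher and 11 as lower. A gene is said to have risen or fallen where the limma test on log2(FPKM + 1), adjusted over all 12712 genes tested, gave a p under 0.05. Of all genes tested, 20.3% were called in either direction, 9.33% as higher and 11.0% as lower, against 50% of the tested members in either direction. The HepKO and Flox values did not overlap for 19 of the 28 members, against 42.4% of all genes tested. The median log2 fold change was -0.46 over the 28 members and -0.06 over all genes tested. The 13 untested members averaged at most 0.462 FPKM, and Sult2a5 and Sult3a2 were listed at 0 in every library. The others below the filter were Ugt1a7c, Ugt1a10, Ugt8a, Sult1c2, Sult2a1, Sult2a2, Sult2b1, Sult3a1, Sult4a1, Sult6b1 and Sult6b2; Sult2a1 and Sult3a1 are known as female-predominant genes of mouse liver. Without 1 library the number of members called lay between 7 and 14; it was 7 without HepKO replicate 2, and 9 without Flox replicate 2 or Flox replicate 3.

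**Figure D1:**
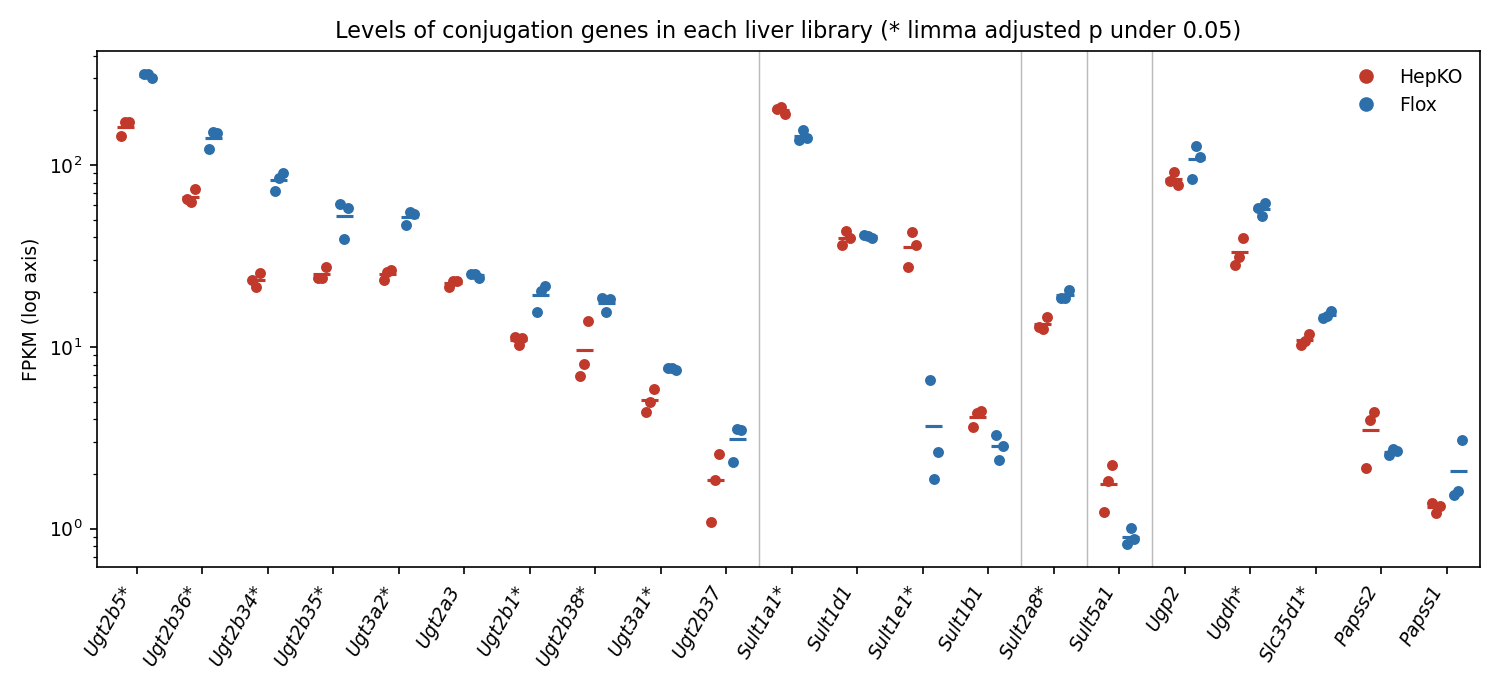
FPKM of the tested members other than the Ugt1a genes and Sult2a7 in every library, on a log axis, with HepKO points left of Flox points for each gene, lines at the group means and stars at genes past the threshold. The starred Ugt2b genes lie lower in HepKO livers, and Sult1e1 lies higher, at 27.5 to 42.9 FPKM in HepKO livers against 1.88 to 6.55 FPKM in Flox livers.

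The Ugt1a family conjugates bilirubin, phenols and acetaminophen itself, and its genes share a large part of their transcript. They lie on chromosome 1 and carry 4 common last exons, within chr1:88215044-88218997 on GRCm38, plus strand. The common part is 1311 bases, which is 58.95% of the Ugt1a1 transcript and 59.86% of the Ugt1a9 transcript in GENCODE M21, but 39.7% of the longer transcript of Ugt1a7c. Ahead of it each tested gene has a part of its own. For each gene only the transcript with the longest coding sequence was used. That of Ugt1a7c begins with the first exon of Ugt1a6b and joins the common part as Ugt1a6a does. The Ugt1a7c gene itself starts further upstream, at chr1:88095062, so its other transcripts are not described here. The junctions of the 6 tested genes are shown because they mark where the genes stop being distinguishable; the last 30 bases of each gene's own part are in lower case and the first 30 shared bases are in capitals, 5′ to 3′, from the GENCODE M21 transcripts.
Ugt1a1: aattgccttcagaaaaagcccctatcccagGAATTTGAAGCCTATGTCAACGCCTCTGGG
Ugt1a9: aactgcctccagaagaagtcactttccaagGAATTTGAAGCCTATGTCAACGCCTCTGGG
Ugt1a6a: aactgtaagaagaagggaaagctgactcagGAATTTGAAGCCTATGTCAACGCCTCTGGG
Ugt1a6b: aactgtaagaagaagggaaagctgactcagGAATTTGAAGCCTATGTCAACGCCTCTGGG
Ugt1a5: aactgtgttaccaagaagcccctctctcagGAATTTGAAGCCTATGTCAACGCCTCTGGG
Ugt1a2: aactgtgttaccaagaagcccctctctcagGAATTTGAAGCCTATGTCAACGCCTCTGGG
The lower-case stretches of Ugt1a5 and Ugt1a2 are the same, and these genes match over 116 bases before the junction. Ugt1a6a and Ugt1a6b also end alike, match over 39 bases before the junction, and are 97.4% identical over their own parts. Levels of single Ugt1a genes therefore depend on how shared reads were divided, a step that the sources used here do not describe.

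The summed Ugt1a level was lower in HepKO livers, while no single Ugt1a gene passed the test. The 8 genes together had 178, 178 and 199 FPKM in HepKO livers and 245, 243 and 261 FPKM in Flox livers. The sums averaged 185 ± 11.9 FPKM in HepKO livers and 250 ± 10.2 FPKM in Flox livers (SD, n = 3 each), a 1.35-fold lower level in HepKO livers with no overlap between the groups. Sums over members were described and not tested.

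Single Ugt1a genes moved from library to library by far more than their sum. Ugt1a1, the bilirubin-conjugating gene, had 64.7, 112 and 64.7 FPKM in HepKO livers and 70.1, 77.8 and 173 FPKM in Flox livers (limma adjusted p = 0.57). Ugt1a6b, which like Ugt1a6a encodes an enzyme for small phenols, had 10.8, 4.12 and 11.7 FPKM in HepKO livers and 52.1, 52.1 and 11.8 FPKM in Flox livers. Flox replicate 3 lay at the level of the HepKO livers, apart from the other Flox livers. The log2 fold change of Ugt1a6b was -1.85 with an SE of 0.62 and an adjusted p of 0.080; without Flox replicate 3 the adjusted p was 0.018.

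Ugt1a6a had 10.1, 3.10 and 21.7 FPKM in HepKO livers and 21.2, 27.8 and 14.4 FPKM in Flox livers (adjusted p = 0.24). Ugt1a9, whose human counterpart conjugates bulky phenols and acetaminophen, had 37.3, 43.1 and 33.8 FPKM in HepKO livers and 28.0, 32.4 and 46.1 FPKM in Flox livers (adjusted p = 0.69). For both genes the groups overlapped. Ugt1a5 ranged from 15.8 to 54.8 FPKM in HepKO livers and from 9.55 to 73.2 FPKM in Flox livers (adjusted p = 0.81). Ugt1a2 was listed at 0 in replicates 1 and 2 of each group, at 43.8 FPKM in HepKO replicate 3 and at 6.13 FPKM in Flox replicate 3. The coefficient of variation of the 6 single genes was 12.3% to 173% in HepKO livers and 26.6% to 173% in Flox livers, against 6.43% and 4.07% for the sum of all 8 Ugt1a genes in the HepKO and the Flox livers.

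**Figure D2:**
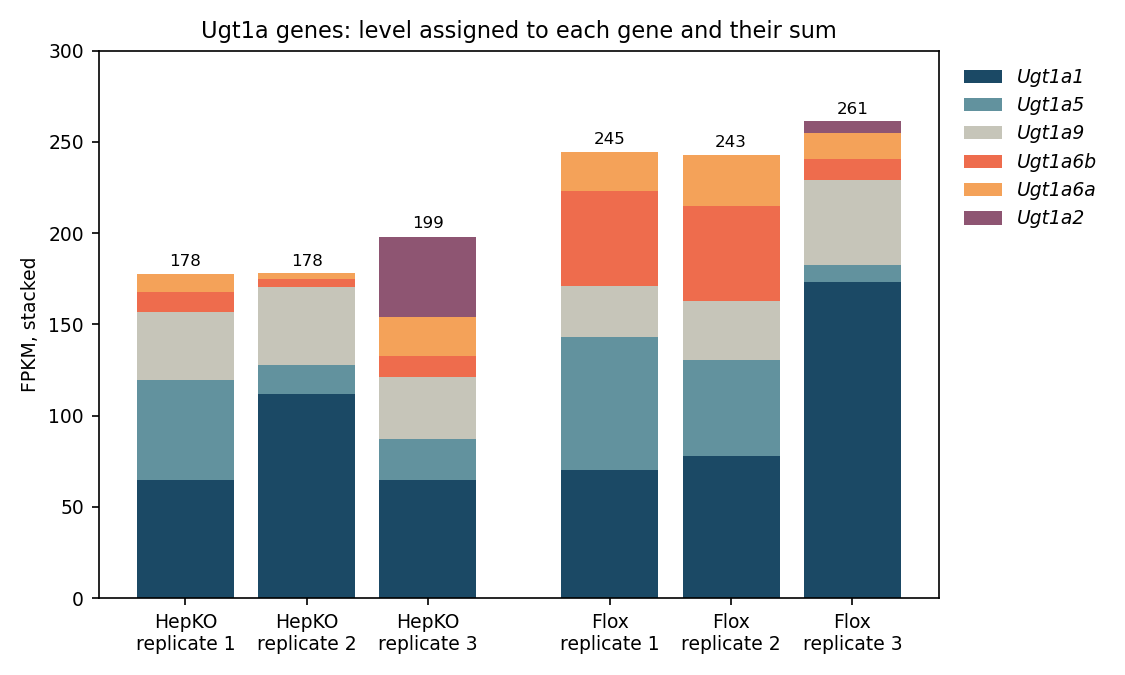
Stacked FPKM of the 6 tested Ugt1a genes in each library, HepKO livers left of Flox livers, with the sum of all 8 Ugt1a genes above each bar. The sums are 178 to 199 in HepKO livers and 243 to 261 in Flox livers, while the part taken by each gene differs between replicates.

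Most Ugt2 and Ugt3 genes fell in HepKO livers. The Ugt2b enzymes conjugate steroids, bile acids and many drugs, and the UGT3A enzymes use other UDP sugars, as known from human. Of 10 tested Ugt2 and Ugt3 genes, 8 fell and Ugt2a3 and Ugt2b37 did not pass the test, with a median log2 fold change of -0.89 against -0.06 over all genes tested. With Ugt8a, which was too low to test, the non-Ugt1a genes summed to 325, 354 and 382 FPKM in HepKO livers and 688, 719 and 729 FPKM in Flox livers. The means were 354 ± 28.3 FPKM in HepKO livers and 712 ± 21.5 FPKM in Flox livers (SD, n = 3 each), 2.01-fold lower in HepKO livers. The Ugt1a genes took 35.3%, 33.5% and 34.2% of the summed Ugt FPKM in HepKO livers and 26.2%, 25.3% and 26.4% in Flox livers.

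Ugt2b5 was the most abundant member of the Ugt families over the 6 libraries. It had 144, 172 and 172 FPKM in HepKO livers and 316, 315 and 301 FPKM in Flox livers. Every HepKO liver lay below every Flox liver, and the mean was 1.91-fold lower (log2 fold change -0.93, SE 0.11, limma adjusted p = 0.0026). Ugt2b36 had 65.3, 62.5 and 73.8 FPKM in HepKO livers and 123, 152 and 151 FPKM in Flox livers, 2.11-fold lower in HepKO livers (log2 fold change -1.06, SE 0.13, adjusted p = 0.0028). The coding sequences of these neighbours are 88.6% identical.

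Ugt2b34 showed the largest fold difference among the tested Ugt2 and Ugt3 genes. Its level was 23.4, 21.3 and 25.5 FPKM in HepKO livers and 72.3, 85.3 and 91.0 FPKM in Flox livers, 3.54-fold lower in HepKO livers (log2 fold change -1.78, SE 0.13, adjusted p = 0.00059). Ugt2b35 had 24.0, 23.9 and 27.6 FPKM in HepKO livers and 60.8, 39.4 and 57.9 FPKM in Flox livers (log2 fold change -1.02, SE 0.18, adjusted p = 0.011). On chromosome 15, Ugt3a2 had 23.5, 25.7 and 26.6 FPKM in HepKO livers and 46.7, 55.0 and 53.7 FPKM in Flox livers (log2 fold change -1.01, SE 0.11, adjusted p = 0.0021). None of these genes overlapped between the groups, and Ugt2b5, Ugt2b36, Ugt2b34, Ugt2b35 and Ugt3a2 passed the threshold in all 15 alternative settings, each left-out library included.

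The falls of 3 lower genes were less secure. Ugt2b1 had 11.4, 10.3 and 11.2 FPKM in HepKO livers and 15.6, 20.4 and 21.7 FPKM in Flox livers (adjusted p = 0.014; 0.057 without HepKO replicate 2 and 0.055 without Flox replicate 2). Ugt2b38 had 6.92, 8.03 and 13.9 FPKM in HepKO livers and 18.5, 15.7 and 18.2 FPKM in Flox livers (adjusted p = 0.048), and its call was lost in 8 of 15 alternatives, 5 of them left-out libraries (every one but HepKO replicate 3), where the adjusted p lay between 0.095 and 0.14. Ugt3a1 had 4.40, 4.96 and 5.87 FPKM in HepKO livers and 7.64, 7.61 and 7.51 FPKM in Flox livers (adjusted p = 0.026), and lost its call without any 1 library other than HepKO replicate 3, at adjusted p of 0.059 to 0.087. Each of the 3 lay lower in every HepKO liver than in any Flox liver.

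Ugt2a3, a member of the same gene cluster, stayed within a narrow range. It had 21.3, 23.2 and 23.0 FPKM in HepKO livers and 25.3, 25.3 and 23.9 FPKM in Flox livers. The log2 fold change was -0.14 with a 95% interval from -0.35 to 0.08 (adjusted p = 0.33), although every HepKO liver lay below every Flox liver. Ugt2b37 had 1.09, 1.85 and 2.58 FPKM in HepKO livers and 2.32, 3.56 and 3.47 FPKM in Flox livers (log2 fold change -0.55, adjusted p = 0.13). Ugt2b5 and Ugt2b38 are 97.0% identical in coding sequence, Ugt2b5 and Ugt2b37 94.7%, and Ugt3a1 and Ugt3a2 93.2%, so the split of reads within these pairs is uncertain.

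The Ugt2 genes of the table share a 702 kb stretch of chromosome 5 with 3 sulfotransferase genes that did not fall. The stretch, chr5:86889767-87591594 on GRCm38, holds 19 genes of the table, of which 11 are members. In order of position, Ugt2b34, Ugt2b1, Ugt2b35, Ugt2b36, Ugt2b5, Ugt2b37, Ugt2a3 and Ugt2b38 come before Sult1b1, Sult1d1 and Sult1e1. From the Ugt2b34 end, 6 of the 8 Ugt2 genes fell, and at the other end Sult1e1 rose while Sult1b1 and Sult1d1 did not pass the test. Of the other 8 genes in the stretch, 2 were tested. Gm5869 did not pass (log2 fold change 0.10, adjusted p = 0.67 by limma), and the pseudogene Gm18635 was called as lower. Gm18635 was low, at 0.281, 0.432 and 0.723 FPKM in HepKO livers and 1.60, 1.86 and 1.27 FPKM in Flox livers. It reached the filter through the Flox livers.

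**Figure D3:**
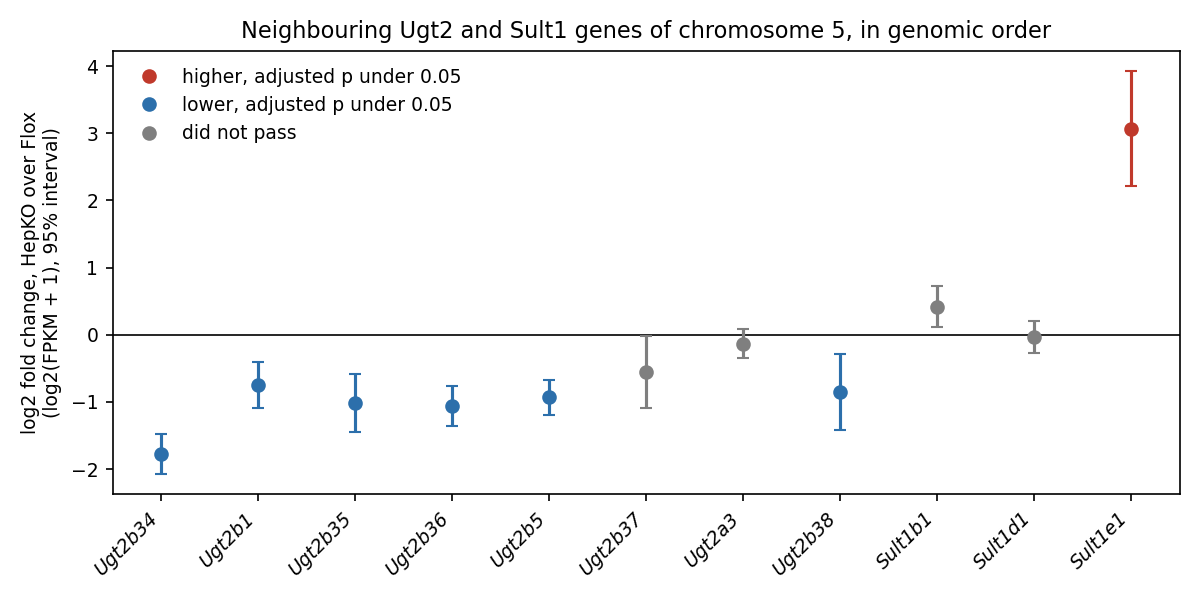
Log2 fold change of HepKO over Flox livers for the 11 members of the chromosome 5 cluster in their order along the chromosome, with 95% intervals (red higher, blue lower, grey not past the threshold). Values run from -1.78 for Ugt2b34 to 3.07 for Sult1e1, with Ugt2a3 at -0.14 and Sult1d1 at -0.03.

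The start regions of 4 cluster genes are printed because these genes carry the largest levels and the largest opposite differences of the cluster. Each runs from 250 bases before to 50 bases after the gene's start, 5′ to 3′ on the minus strand, from RefSeq on GRCm38.p6. They lie at chr5:87140291-87140590 for Ugt2b5, chr5:87092506-87092805 for Ugt2b36, chr5:86906888-86907187 for Ugt2b34 and chr5:87591562-87591861 for Sult1e1. Capitals mark the motif AGGTCA on either strand, the core element bound by many nuclear receptors.
Ugt2b5: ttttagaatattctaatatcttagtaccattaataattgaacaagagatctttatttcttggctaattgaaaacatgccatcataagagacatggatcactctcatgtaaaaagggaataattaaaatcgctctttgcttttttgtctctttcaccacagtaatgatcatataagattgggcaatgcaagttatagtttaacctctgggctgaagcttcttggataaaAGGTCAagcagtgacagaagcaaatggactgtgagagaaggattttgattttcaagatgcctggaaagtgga
Ugt2b36: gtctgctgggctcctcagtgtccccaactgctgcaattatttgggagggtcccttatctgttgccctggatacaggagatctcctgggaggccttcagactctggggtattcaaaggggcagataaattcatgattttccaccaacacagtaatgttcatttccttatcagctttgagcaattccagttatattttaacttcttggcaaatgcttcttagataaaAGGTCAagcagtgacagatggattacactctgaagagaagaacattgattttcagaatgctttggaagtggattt
Ugt2b34: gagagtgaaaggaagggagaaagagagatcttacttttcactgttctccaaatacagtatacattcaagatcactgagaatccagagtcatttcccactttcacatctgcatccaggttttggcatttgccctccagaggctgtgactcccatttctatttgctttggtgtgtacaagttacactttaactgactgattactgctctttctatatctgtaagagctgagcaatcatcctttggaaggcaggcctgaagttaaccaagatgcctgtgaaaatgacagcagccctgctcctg
Sult1e1: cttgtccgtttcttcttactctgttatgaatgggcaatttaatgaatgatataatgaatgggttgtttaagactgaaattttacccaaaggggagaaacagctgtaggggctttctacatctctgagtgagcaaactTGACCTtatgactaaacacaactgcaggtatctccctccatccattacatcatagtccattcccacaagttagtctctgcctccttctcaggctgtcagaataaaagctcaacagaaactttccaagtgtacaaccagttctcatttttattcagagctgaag
The motif begins 22 bases before the start in Ugt2b5, 25 bases before it in Ugt2b36 and 113 bases before it, on the other strand, in Sult1e1; it is not in the printed window of Ugt2b34. Start regions were found for 35 of the 41 members, and 9 of them hold the motif on either strand, against 16.3% of all 32817 start regions of that length. Among the 7 Ugt2b genes it is in 5, which are Ugt2b35, Ugt2b36, Ugt2b5, Ugt2b37 and Ugt2b38. The genes with it include members that fell and Sult1e1, which rose, and a match is a description of letters and not a binding site. The other motifs searched on both strands were the full HNF1 motif, which is in 0 of 35 members and 3 of the 32817 start regions, GTTAAT, which is in 10 of 35 members and 0 of 7 Ugt2b genes against 7.10% of all start regions, and TGACNNNGC, which is in Slc35d1 and Ugdh against 12.4% of all start regions. A TGACNNNGC match can overlap the reverse of AGGTCA. The full HNF1 motif contains GTTAAT, and each motif was counted on its own. Only exact matches were counted, so a missing match does not show that a start region lacks a similar element.

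Sulfotransferase genes moved in both directions. The 17 Sult genes summed to 286, 314 and 288 FPKM in HepKO livers and 210, 222 and 211 FPKM in Flox livers, 1.38-fold higher in HepKO livers with no overlap. Of 4 tested Sult1 genes, 2 rose and 2 did not pass; Sult2a8 fell; Sult2a7 was also called as lower, but reached the filter only through the Flox livers; and Sult5a1, the only other tested gene, did not pass.

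Sult1a1, the main phenol sulfotransferase and an enzyme that sulfates acetaminophen, carried most of that sum. It had 204, 209 and 190 FPKM in HepKO livers and 137, 155 and 141 FPKM in Flox livers, and every HepKO liver was higher. The means were 201 ± 9.70 FPKM in HepKO livers and 145 ± 9.36 FPKM in Flox livers (SD, n = 3 each), 1.39-fold higher in HepKO livers (log2 fold change 0.47, SE 0.10, limma adjusted p = 0.019). The call was lost without HepKO replicate 2 (adjusted p = 0.080) and without Flox replicate 3 (0.073). The gene lies at chr7:126672865-126676432 on the minus strand and overlaps Sgf29 on the other strand; the sources used here do not say whether counting used strand, so reads of the pair cannot be told apart.

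Sult1e1, the estrogen sulfotransferase, had the largest log2 fold change in size of any tested member. Its level was 27.5, 42.9 and 36.4 FPKM in HepKO livers and 6.55, 1.88 and 2.65 FPKM in Flox livers. The lowest HepKO liver was above the highest Flox liver, and the mean was 9.64-fold higher in HepKO livers (log2 fold change 3.07, SE 0.36, adjusted p = 0.0027 by limma). Without Flox replicate 1, the highest of the Flox livers, the ratio of means was 15.7, and the call held in all 15 alternative settings.

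Sult1d1, which sulfates catecholamines in mouse, had 36.5, 43.2 and 39.8 FPKM in HepKO livers and 41.1, 40.8 and 39.6 FPKM in Flox livers. Its log2 fold change was -0.03 with a 95% interval from -0.26 to 0.21 (adjusted p = 0.88), and the groups overlapped. Sult1b1, which sulfates thyroid hormones, had 3.60, 4.31 and 4.43 FPKM in HepKO livers and 3.27, 2.39 and 2.85 FPKM in Flox livers (log2 fold change 0.42, adjusted p = 0.063). It passed the threshold under both rescalings of the libraries (adjusted p = 0.036 and 0.032). Sult1c2 was below the filter, at 0.170 to 0.283 FPKM in HepKO livers and 0.502 to 0.858 FPKM in Flox livers.

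Of the Sult2 genes, which in general sulfate steroids and bile acids, 2 of 6 reached the filter. Sult2a8, a bile acid sulfotransferase of mouse liver, had 12.9, 12.6 and 14.6 FPKM in HepKO livers and 18.5, 18.5 and 20.7 FPKM in Flox livers. It was lower in every HepKO liver, by 1.44-fold in the means (log2 fold change -0.49, SE 0.10, adjusted p = 0.020). The call was lost without HepKO replicate 1 (adjusted p = 0.054), HepKO replicate 2 (0.081), Flox replicate 2 (0.058) or Flox replicate 3 (0.072).

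Sult2a7, the neighbour of Sult2a8 on chromosome 7, was listed at 0 in HepKO replicates 1 and 2 and at 0.130 FPKM in HepKO replicate 3. In the Flox livers it had 1.83, 1.13 and 1.18 FPKM. It passed the filter only through the Flox livers, so it could enter the test only by differing, and neither fold nor p-value is given. Sult2a1, known to sulfate acetaminophen and steroids in human, was at most 0.0588 FPKM in any library. Sult5a1 had 1.23, 1.83 and 2.23 FPKM in HepKO livers and 0.824, 1.00 and 0.882 FPKM in Flox livers (adjusted p = 0.055); it passed under both rescalings, at 0.035 and 0.036, and without HepKO replicate 1, at 0.026.

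**Figure D4:**
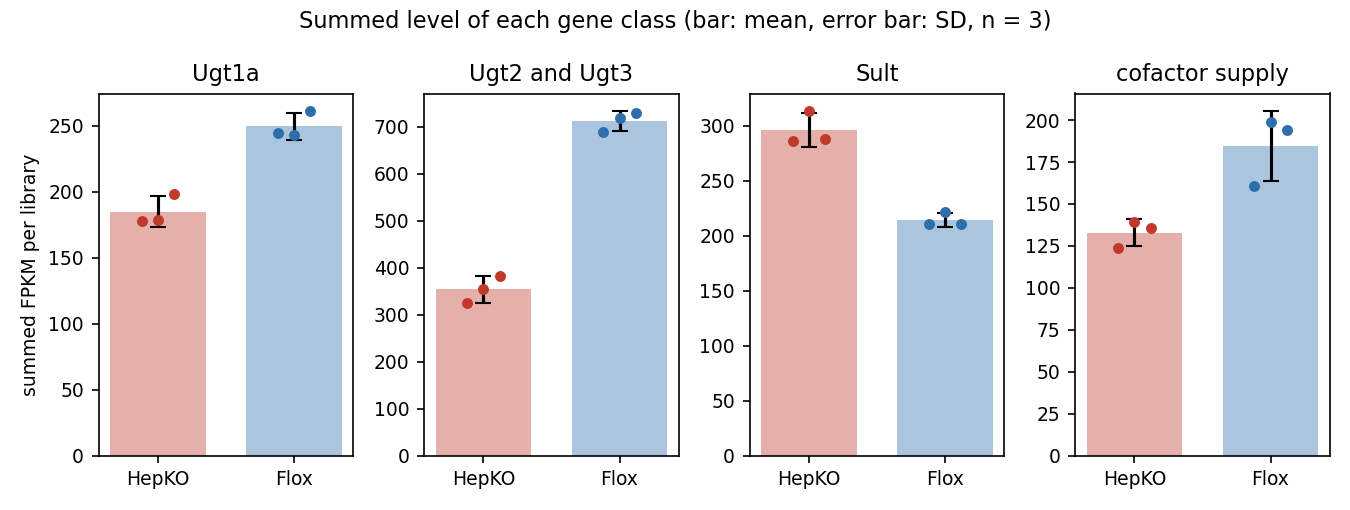
Summed FPKM of the members of each class, HepKO left of Flox; bars are means, error bars SD, and points the 3 libraries of each group. The Ugt sums and the donor supply sum are lower in HepKO livers and the Sult sum is higher, at 286 to 314 FPKM in HepKO livers against 210 to 222 FPKM in Flox livers.

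Of the 3 genes that supply UDP-glucuronic acid, Ugdh and Slc35d1 fell and Ugp2 did not pass the test. Neither gene that makes PAPS passed it. Ugdh, the enzyme that oxidises UDP-glucose to UDP-glucuronic acid, had 28.3, 31.4 and 40.0 FPKM in HepKO livers and 57.9, 52.6 and 61.8 FPKM in Flox livers. All HepKO livers were below all Flox livers, and the mean was 1.73-fold lower (log2 fold change -0.78, SE 0.15, adjusted p = 0.014 by limma; 0.057 without HepKO replicate 2 and 0.052 without Flox replicate 3). Slc35d1, which carries UDP-glucuronic acid into the endoplasmic reticulum, had 10.2, 10.8 and 11.8 FPKM in HepKO livers and 14.4, 14.8 and 15.8 FPKM in Flox livers. It was 1.37-fold lower (log2 fold change -0.42, SE 0.10, adjusted p = 0.029), and its call was lost without HepKO replicate 1, HepKO replicate 2, Flox replicate 2 or Flox replicate 3, at adjusted p of 0.071 to 0.097.

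Ugp2, which makes UDP-glucose, had 81.9, 91.9 and 78.0 FPKM in HepKO livers and 84.3, 127 and 111 FPKM in Flox livers (log2 fold change -0.34, adjusted p = 0.20; 0.0498 without Flox replicate 1, the lowest of the Flox livers). Papss1 and Papss2 make PAPS from sulfate and ATP. Papss1 had 1.38, 1.21 and 1.34 FPKM in HepKO livers and 1.54, 1.60 and 3.06 FPKM in Flox livers (adjusted p = 0.21). Papss2 had 2.16, 3.98 and 4.36 FPKM in HepKO livers and 2.53, 2.73 and 2.67 FPKM in Flox livers (adjusted p = 0.39; 0.039 without HepKO replicate 1, the lowest of the HepKO livers).

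Genes around both reactions were described from 6 lists with 67 entries, 66 of them in the table and 62 tested. Of the 62, 5 rose, 23 fell and 34 did not pass, with a median log2 fold change of -0.36 against -0.06 over all genes tested. Calls in either direction made up 45.2% of the 62 genes. Over all genes tested this share was 20.3%, with 9.33% as higher and 11.0% as lower. Of these 28 calls, 16 held in all alternative settings. The lists were not tested as sets.

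Of 10 tested genes of sulfate supply, 4 fell and 1 rose. Slc26a1, a sulfate transporter of the hepatocyte membrane, had 7.47, 5.43 and 5.83 FPKM in HepKO livers and 11.1, 16.3 and 15.8 FPKM in Flox livers (log2 fold change -1.08, adjusted p = 0.0085). Suox, sulfite oxidase, had a log2 fold change of -1.06 (adjusted p = 0.0085), and Tst, a sulfurtransferase, one of -0.91 (adjusted p = 0.0053). Slc35b2, which carries PAPS into the Golgi, had one of -0.48 (adjusted p = 0.017; 0.061 without Flox replicate 2 and 0.062 without Flox replicate 3). Cdo1, which begins the oxidation of cysteine towards sulfate, was higher, at 780, 896 and 834 FPKM in HepKO livers and 696, 564 and 589 FPKM in Flox livers (log2 fold change 0.44, adjusted p = 0.043). Its call was lost without any 1 library other than Flox replicate 1, at adjusted p of 0.056 to 0.14, and it was named after its values were seen.

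Of 6 tested genes that use glucuronate for ascorbate and pentose synthesis, 4 fell and 1 rose. Gulo, the last enzyme of ascorbate synthesis, had a log2 fold change of -1.30 (adjusted p = 0.0060), Xylb one of -0.81 (adjusted p = 0.0046) and Rgn one of -1.68 (adjusted p = 0.020; 0.059 to 0.069 without HepKO replicate 1 or 2 or Flox replicate 2 or 3). Miox, which makes glucuronate from inositol, was higher (0.82, adjusted p = 0.038), and lost its call without any 1 library other than Flox replicate 1, at 0.058 to 0.12. Of 10 tested genes of UDP-glucose supply and its competing uses, Pgm2 rose (1.09, adjusted p = 0.0037) and the liver glycogen genes Gys2 (-0.68, 0.0041) and Pygl (-0.77, 0.013) fell. None of 4 tested genes that remove glucuronate or sulfate passed the threshold.

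Transporters of conjugates split by direction. Of 9 tested, 6 fell and 1 rose, with a median log2 fold change of -1.05. Abcc2, the canalicular pump for glucuronides, had 32.4, 29.3 and 31.6 FPKM in HepKO livers and 54.6, 60.0 and 63.0 FPKM in Flox livers (log2 fold change -0.91, adjusted p = 0.0023). Abcc3, the pump on the blood side, had 43.7, 42.3 and 37.1 FPKM in HepKO livers and 22.6, 29.2 and 26.6 FPKM in Flox livers (log2 fold change 0.64, adjusted p = 0.017; 0.067 without HepKO replicate 2 and 0.053 without Flox replicate 3). The uptake carrier Slco1b2 had a log2 fold change of -2.77 (adjusted p = 0.00026), the largest of the 9 in size, followed by Slco1a4 (-1.43, 0.0011), Slco1a1 (-1.34, 0.027) and Abcc6 (-1.20, 0.0017). The call of Slco1a1 was lost without HepKO replicate 1 or 2 or Flox replicate 2 or 3, at 0.055 to 0.087. Abcc2 and Abcc3 were named after their values were seen.

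**Figure D5:**
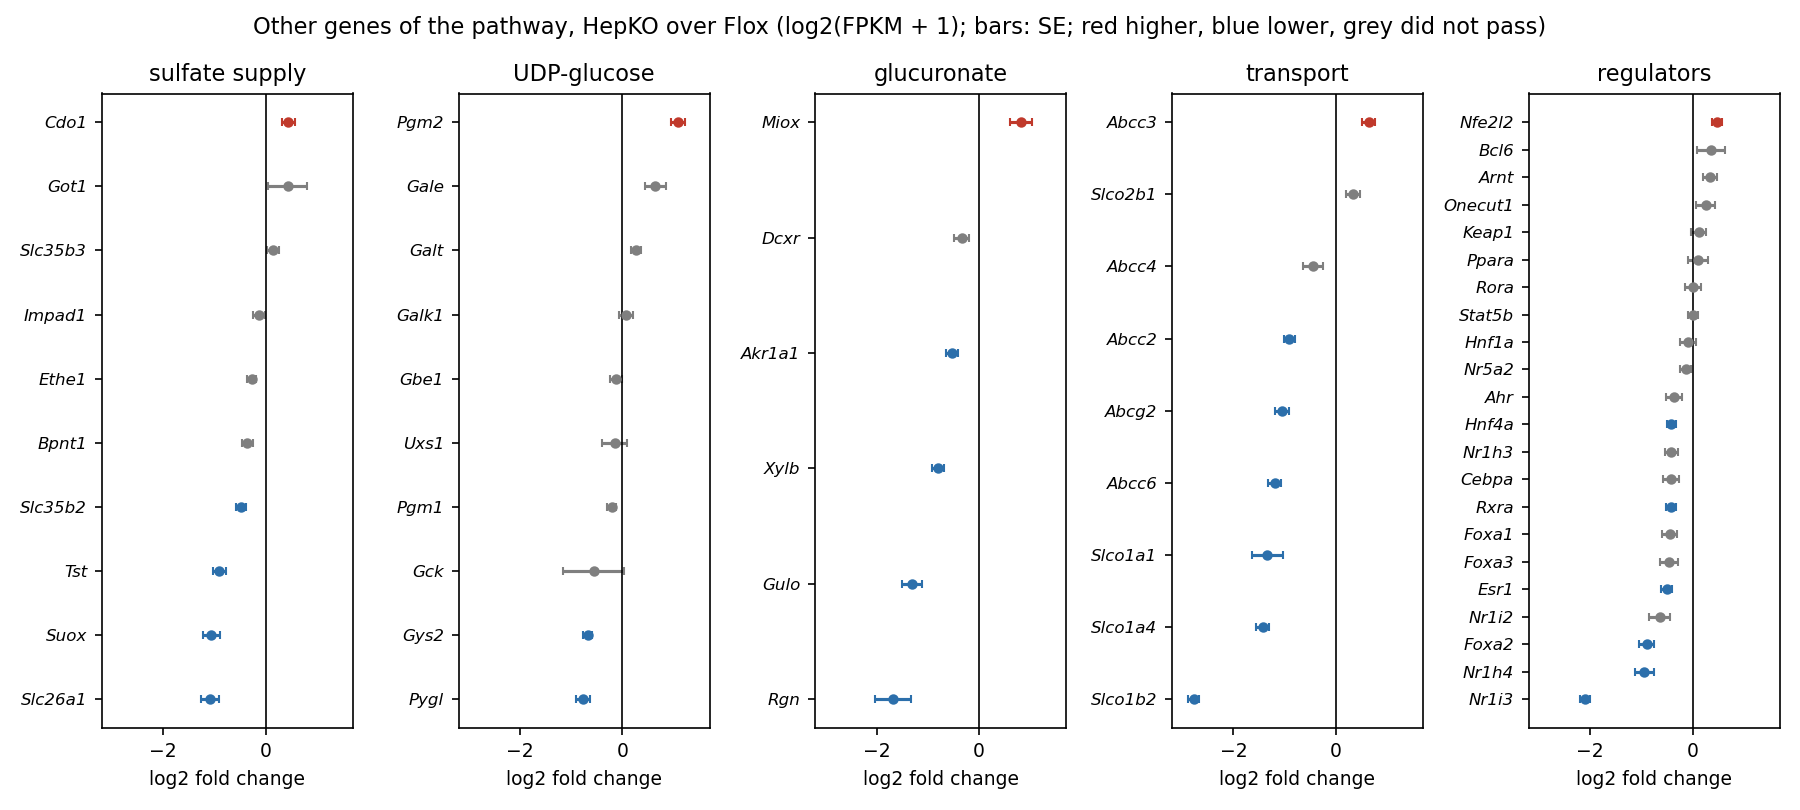
Log2 fold change of HepKO over Flox livers for tested genes of 5 of the lists, with SE as bars (red higher, blue lower, grey not past the threshold). Of 9 transporter genes 6 are blue and Abcc3 is red at 0.64. Nr1i3 lies at -2.10 among the regulators.

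Of 23 tested regulators of Ugt and Sult genes, which are transcription factors apart from Keap1, 7 fell, 1 rose and 15 did not pass. Nr1i3, which encodes the drug-sensing receptor CAR, had 20.0, 18.5 and 21.4 FPKM in HepKO livers and 88.2, 87.9 and 91.2 FPKM in Flox livers, 4.46-fold lower (log2 fold change -2.10, adjusted p = 0.00026). The bile acid receptor gene Nr1h4 (-0.94, adjusted p = 0.016; 0.061 without Flox replicate 2) and Foxa2 (-0.90, 0.0079) also fell. Nfe2l2, which encodes the oxidant-responsive factor NRF2, had 25.5, 22.6 and 24.5 FPKM in HepKO livers and 17.4, 17.5 and 16.4 FPKM in Flox livers (0.48, adjusted p = 0.017; 0.055 without Flox replicate 2 and 0.064 without Flox replicate 3), and was named after its values were seen.

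The authors' deposited table gives its own q-value for each gene. By a q under 0.05 it calls 11 of the 14 members called by limma, all but Ugt3a1, Sult2a8 and Slc35d1. It also calls Ugt1a6b (q = 0.00026), Sult5a1 (q = 0.021) and Sult1c2 (q = 0.045).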

How the data were processed

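The deposited table holds FPKM per gene and library, computed by the authors, per the file headers, with the authors' own p-value and q-value columns, whose test the sources used here do not name. Tools listed without roles in the submitters' processing notes are HISAT2 2.0.4, cutadapt 1.9, edgeR, DESeq2 and StringTie 1.3.4d. Neither genome build nor strand use in counting is stated; 40 of the 41 members have the coordinates of GENCODE M21 on GRCm38. FPKM are not counts and depth is unknown, so no count test was run.

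Genes averaging 0.5 FPKM or more over 6 libraries, 12712 in all, were tested as log2(FPKM + 1) with limma 3.58.1 in R 4.3.3 (genotype as the only term, variance trend, two-sided, Benjamini-Hochberg over all genes tested, threshold 0.05). Log2 fold changes on this scale understate low genes; folds are ratios of mean FPKM. The test was tried on simulated data. Tables, sequences and plots used Python 3.11.15, pandas 2.3.3 and matplotlib 3.10.9. Start regions came from RefSeq (GRCm38.p6).

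Genes named by rule were Nedd4, the members called, the 4 most abundant members per class and members known to conjugate acetaminophen. The rule also named up to 4 called genes with the largest changes per surrounding list. Cdo1, Abcc2, Abcc3 and Nfe2l2 are marked as named after their values were seen. Other members, cluster neighbours and cell markers outside the rule carry no such mark, among them Ugt2a3, Ugt2b37, Ugt1a2, Gm18635, Fgb and Glul. Of the genes this rule names, 1 is counted but not reported or drawn here. The members and lists were chosen with earlier results of these data known. Alternatives were other pseudocounts, filters, rescalings and limma settings, leaving out each library, and a replicate block.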

Additional observations from a re-analysis of the deposited data

How the results depend on the processing

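None of the called members or called surrounding genes changed sign in the 15 alternative settings, and 7 of the 14 called members kept their calls in every setting where they were tested; 1 of these is Sult2a7, which reached the filter only through the Flox livers, so its kept call says nothing of stability. Both rescalings of the libraries raised the members called as higher to 4. With no filter on low values, 899 of all genes were called as lower, against 1397. With each library left out in turn, all genes called numbered 1281 to 2257 (669 to 1035 higher, 612 to 1303 lower), members 7 to 14 (1 to 4 higher, 6 to 12 lower) and surrounding genes 17 to 29 (1 to 6 higher, 15 to 25 lower). With replicate number as a block, 1551 of all genes were called (776 higher, 775 lower), with 1 member and 1 surrounding gene as higher. The deviations of same-numbered HepKO and Flox libraries correlated at 0.0029, 0.0021 and -0.025, none correlated best with its own number, and the labels give the numbers no further meaning, so they were not taken as pairs. The class sums were recomputed under both rescalings and without each library, and kept their direction in each of these, the Ugt1a sum being 1.29-fold to 1.40-fold lower in HepKO livers. Precision is limited by 3 libraries per group and by unknown depth. Shared Ugt1a exons and near-identical Ugt2b copies limit single-gene levels.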

Other observations

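Lists of liver zone and sex markers were also read. Of 5 tested pericentral hepatocyte markers, Glul was higher and 2, Axin2 and Cyp1a2, were lower. Axin2 reached the filter only through the Flox livers. The list summed to 771 to 924 FPKM in HepKO livers and 982 to 1067 FPKM in Flox livers. Most of this sum was Cyp2e1, at 712 to 856 FPKM in HepKO livers and 869 to 968 FPKM in Flox livers. Cyp2e1 did not pass the test (limma adjusted p = 0.15). Of 9 tested periportal markers 3 were lower, with sums of 1882 to 2200 FPKM in HepKO livers and 2108 to 3237 FPKM in Flox livers. Of 8 tested male-biased liver genes 6 were lower and Selenbp2 was higher, with sums of 2143 to 2639 FPKM in HepKO livers and 3225 to 3859 FPKM in Flox livers. Most of these sums was Mup20, at 1930 to 2407 FPKM in HepKO livers and 2846 to 3497 FPKM in Flox livers. None of the 7 female-biased genes reached the filter, at sums of 0.952 to 2.26 FPKM in HepKO livers and 0.398 to 1.84 FPKM in Flox livers. Xist averaged 0.0819 FPKM over the 6 libraries, and none of 4 tested Y-linked genes was called.

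Of 8 tested Kupffer cell and macrophage markers 2, Marco and Ccr2, were higher, though Ccr2 reached the filter only through the HepKO livers. The list summed to 109 to 129 FPKM in HepKO livers and 73.7 to 117 FPKM in Flox livers. Of 6 tested endothelial markers 3 were higher and 1 lower. All 6 together summed to 33.8 to 47.8 FPKM in HepKO livers and 26.8 to 30.1 FPKM in Flox livers. Of 6 tested stellate cell markers 1, Dcn, was higher. Dcn had 25.9 to 38.7 FPKM in HepKO livers and 14.2 to 21.9 FPKM in Flox livers. It carried most of the sum of the 6 markers, which was 33.6 to 48.5 FPKM in HepKO livers and 21.2 to 31.0 FPKM in Flox livers. Lymphocyte markers did not reach the filter, at sums of 0.288 to 0.888 FPKM in HepKO livers and 0.104 to 1.04 FPKM in Flox livers, with Ms4a1 listed at 0. Their part in the differences between the groups was not tested.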
